A study of Mus musculus with 12 samples.

Results

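Acetaminophen (APAP) becomes toxic when liver cytochrome P450 enzymes oxidise it to a reactive quinone imine, and the genes of those enzymes are described here across 4 groups of mouse livers. The rule named 7 genes, Cyp2e1, Cyp1a2, Cyp1a1, Cyp3a11, Cyp3a13, Cyp3a25 and Por, and took every probe set (a group of array probes that together read 1 transcript) whose annotated symbol is or contains one of these names. It found 6 probe sets of 22690 on the array, 1 for each P450 gene, and none of the 6 carries a second symbol. No probe set is listed for Por in the annotation used, so Por, the P450 reductase, was not analysed here on the arrays. The rule uses names and no measured values.

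Liver RNA came from 12 male C57BL6/J mice aged 8 weeks and was hybridised to 1 Affymetrix array a mouse, with 3 mice in each group. The groups were Txnrd1 liver-null mice given APAP, wildtype mice given APAP, Txnrd1 liver-null mice given saline (PBS) and wildtype mice given saline, here called null and WT livers. APAP was injected into the peritoneum at 100 mg/kg, and livers were harvested 8 hours after the injection. In the liver-null mice a conditional-null allele of Txnrd1 is disrupted by albCre, in which the albumin promoter drives Cre in hepatocytes, so other liver cells would keep the gene. Txnrd1 encodes the cytosolic thioredoxin reductase, and the series title concerns protection against APAP toxicity in its absence. The comparisons below address whether the RNA of the enzymes that activate APAP differed with the genotype or after APAP.

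Most APAP is normally removed as glucuronide and sulfate conjugates. A P450 takes up the rest, receives electrons from NADPH through the reductase Por, and releases the quinone imine NAPQI, which glutathione captures until it runs short. Cyp2e1 and Cyp1a2 are made mainly by hepatocytes around the central vein, where APAP injury appears. Cyp2e1 is regulated largely through the stability of its protein, which arrays of RNA do not read. Cyp1a1 and Cyp1a2 are induced by the aryl hydrocarbon receptor AHR, and Cyp3a11 by the pregnane X receptor PXR and its relative CAR.

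The promoters of Cyp2e1, Cyp1a2 and Cyp1a1 are shown because these genes differ in how they are switched on: AHR induces the Cyp1a pair, and Cyp2e1 is not a classic AHR target. All 7 genes matched the RefSeq promoter table, and the windows hold the 250 bases before the start site, 5′ to 3′ on the gene's strand, build GRCm38.p6. Capitals mark the AHR core motif GCGTG, in either orientation, and the TATA box TATAAA. The Cyp2e1 window lies at chr7:140763569-140763818 on the plus strand, that of Cyp1a2 at chr9:57683656-57683905 on the minus strand, and that of Cyp1a1 at chr9:57697363-57697612 on the plus strand.
Cyp2e1: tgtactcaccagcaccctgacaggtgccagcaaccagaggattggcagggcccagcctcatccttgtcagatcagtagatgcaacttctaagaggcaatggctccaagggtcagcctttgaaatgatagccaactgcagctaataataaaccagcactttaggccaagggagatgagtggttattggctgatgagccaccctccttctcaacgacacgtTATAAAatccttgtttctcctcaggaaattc
Cyp1a2: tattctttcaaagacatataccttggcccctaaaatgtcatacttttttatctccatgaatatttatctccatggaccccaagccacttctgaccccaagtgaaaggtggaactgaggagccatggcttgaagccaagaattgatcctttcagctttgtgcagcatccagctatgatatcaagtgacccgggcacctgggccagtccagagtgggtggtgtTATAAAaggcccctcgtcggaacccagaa
Cyp1a1: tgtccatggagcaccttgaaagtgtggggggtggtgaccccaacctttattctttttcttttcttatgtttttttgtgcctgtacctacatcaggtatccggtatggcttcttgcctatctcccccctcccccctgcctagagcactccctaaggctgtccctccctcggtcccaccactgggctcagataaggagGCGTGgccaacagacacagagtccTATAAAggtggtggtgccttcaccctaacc
Counted from the start site, a TATA box stood at -31 to -26 in Cyp2e1, at -29 to -24 in Cyp1a2 and at -30 to -25 in Cyp1a1. The table holds 8 windows for the 7 genes, 2 of them for Cyp3a25 and offset by 1 base. TATAAA on either strand was found for 4 of the 7 genes, the fourth being Cyp3a11 at -234 to -229, and in 12.37% of all 32851 RefSeq windows of this length. GCGTG was present for 2 of the 7 genes, Cyp1a1 (-54 to -50) and Por, and in 28.16% of all windows. The Cyp1a2 window held none, and bases farther upstream were not searched. The CCAAT box, not marked, was found for 3 of the 7 genes, Cyp2e1, Cyp3a13 and Cyp3a25, and in 33.85% of all windows. The antioxidant response core TGACNNNGC, the motif of the factor NRF2, was found for 0 of the 7 genes and in 10.16% of all windows. These matches describe letters and say nothing of binding. In a separate RefSeq gene list, Cyp1a2 and Cyp1a1 are neighbours on chromosome 9, with 0 genes between them. Cyp3a11 and Cyp3a25 are neighbours on chromosome 5, also with 0 genes between them. Cyp3a13 lies elsewhere on chromosome 5, and Cyp2e1 lies on chromosome 7.

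All values are the authors' log2 values (RMA), and levels of different probe sets are not compared. Testing was limited to the 14324 probe sets that rose above the 40th percentile of an array in 3 or more livers. Differences were tested with limma, and the threshold for a call was an adjusted p of 0.05 (Benjamini-Hochberg, all 14324). No label divides the arrays, but by their upper quartile they formed 2 sets: it was 5.49 to 5.58 on 4 arrays, 1 in each group (null APAP 17, WT APAP 14, null saline 16 and WT saline 10), and 5.73 to 5.85 on the other 8. Correlations between arrays over all probe sets were 0.986 to 0.998. The expressed Txnrd1 probe set was higher in livers labelled null, at 10.40 ± 0.11, than in WT livers at 9.64 ± 0.14 (SD, n = 6 each; log2 difference 0.75, SE 0.09, limma adjusted p = 0.000886), and the other 2 Txnrd1 probe sets had group means of 1.40 to 2.00. Whether any of them reads the deleted exons was not analysed here. They are no test of the genotype labels, and groups are named as labelled. Of 50 markers of 8 liver cell types, 39 were tested and 0 were called in any of the 7 comparisons (limma). Those comparisons called 0.0% to 3.65% of all tested probe sets, so 0 of 39 lies close to that background. In saline the mean level of 7 hepatocyte markers was 12.91 to 12.96 in null livers and 13.03 to 13.11 in WT livers. These groups did not overlap, beside 14.6% of all tested probe sets in that comparison. After APAP it was 12.98 to 13.03 in null livers and 12.93 to 13.11 in WT livers, with overlap. Of the erythroid markers, 3 of 5 have a probe set. Their mean level was 3.98 to 4.22 in null livers and 4.28 to 4.65 in WT livers, without overlap. Of these, Hba-a1 (1.81 to 2.20, not tested) and Slc4a1 (2.52 to 2.91) read no higher than the array medians of 2.91 to 2.99. Only Alas2 (6.928 to 8.995) lay above them, so the mean rests mainly on that 1 gene. Over both treatments, 3.87% of all tested probe sets had null and WT livers without overlap. The part of hepatocyte or erythroid RNA in any genotype difference was not tested. In bulk liver, fewer cells of a type and less RNA per cell cannot be told apart.

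Of the 6 P450 probe sets, 5 were tested and 0 were called in any comparison. The same comparisons called 3.65% of all tested probe sets for null against WT over both treatments, 0.621% in saline and 0.761% after APAP. For APAP against saline they called 0.0% in WT livers, 0.0% in null livers and 0.0% over both genotypes, and the interaction of genotype with APAP called 0.0%. At an unadjusted p under 0.05, limma gave 1596 of 14324 probe sets for null against WT in saline, 1215 after APAP and 2264 over both treatments. For APAP against saline it gave 276 in WT livers, 103 in null livers and 209 over both genotypes, and 188 for the interaction. Of the 35 member differences in all these comparisons, 0 reached that level. With 5 probe sets tested, a share of 0 cannot be told apart from any of these backgrounds. What the P450 probe sets add is the size of difference their intervals allow.

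**Figure D1:**
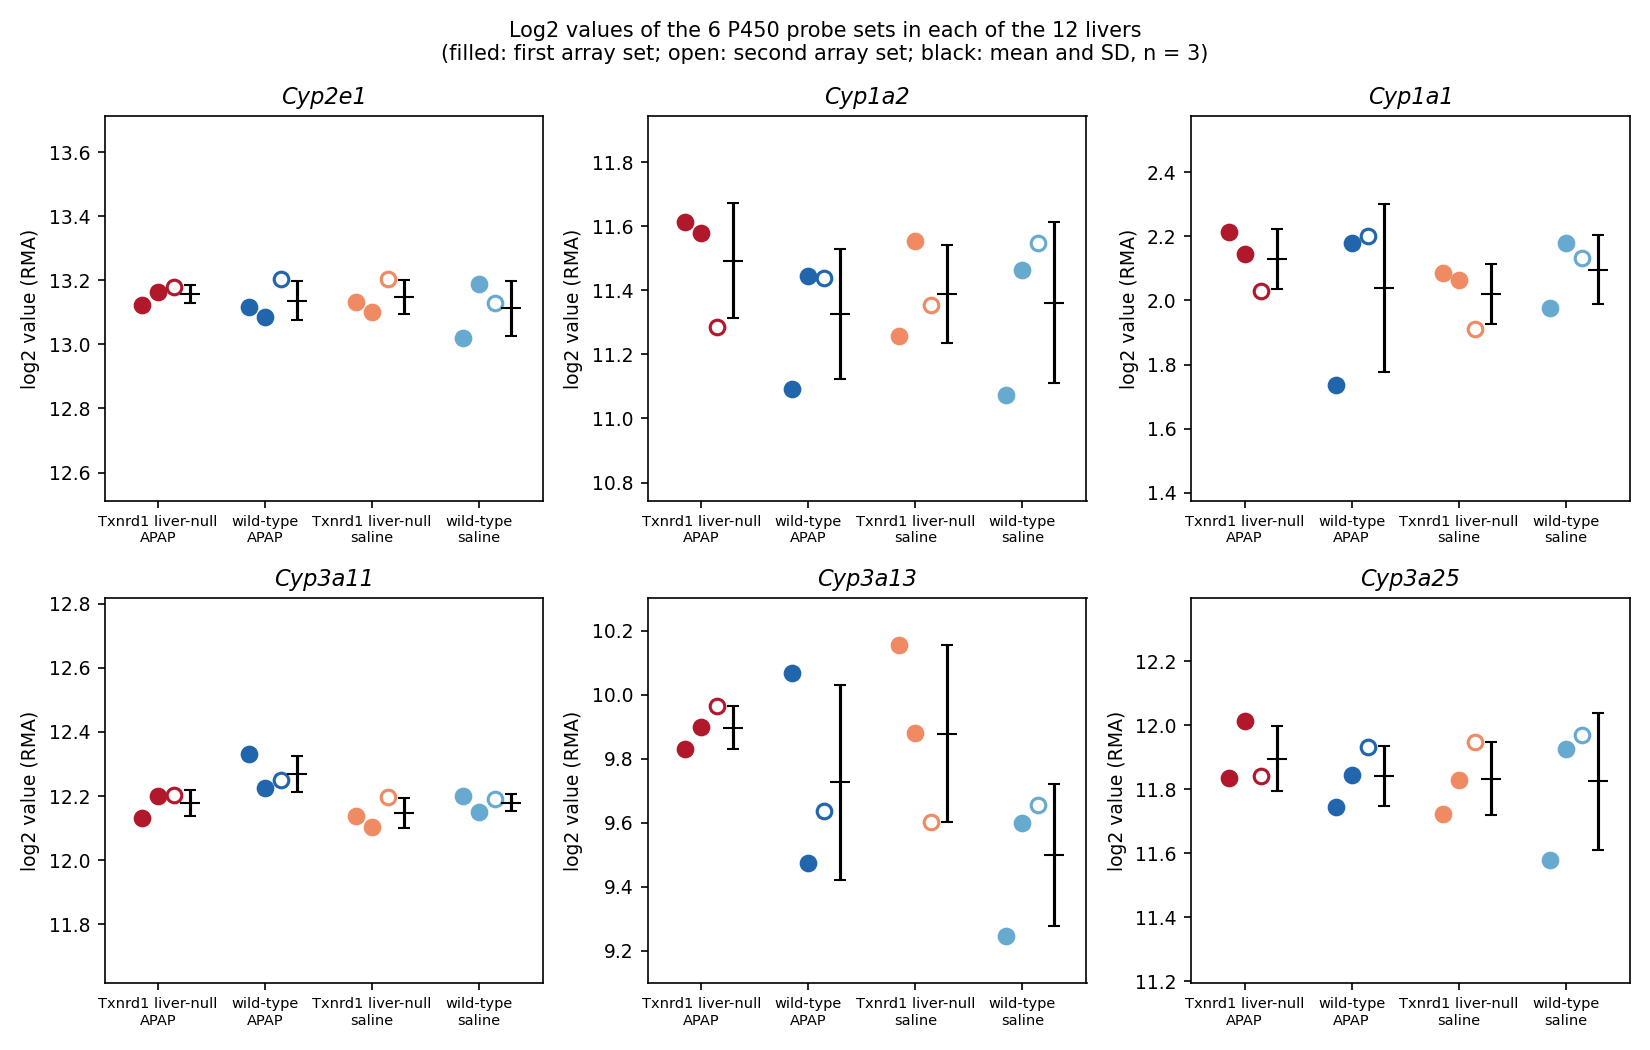
Log2 value (RMA) of each of the 6 P450 probe sets in all 12 livers, 1 panel a probe set, with the groups along the horizontal axis. Points are livers (open for the second array set), black marks are the mean and SD of 3 livers, and every vertical axis spans the same number of log2 units. For Cyp3a11 the 3 WT APAP livers read 12.22 to 12.33 and the next liver 12.20. Neither Cyp3a11 comparison with that group passed the test. Cyp1a1 stays between 1.74 and 2.21.

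Cyp2e1, the main APAP-oxidising P450 at toxic doses, had the smallest SD over the 12 livers among the members. It read 13.12, 13.16 and 13.18 in null APAP livers and 13.12, 13.09 and 13.21 in WT APAP livers. In saline it read 13.13, 13.10 and 13.21 in null livers, against 13.02, 13.19 and 13.13 in WT livers. No group stood apart, and all 12 livers lay within 0.19 on the log2 scale, a 1.14-fold range. Over both treatments Cyp2e1 averaged 13.15 ± 0.04 in null livers and 13.12 ± 0.07 in WT livers (SD, n = 6 each). The difference was 0.03 (SE 0.07, 95% interval -0.12 to 0.17, limma adjusted p = 0.919). As a fold the interval runs from 0.920 to 1.13, so larger shifts in Cyp2e1 signal lie outside it. APAP against saline gave 0.02 in WT livers (SE 0.10, interval -0.18 to 0.23) and 0.01 in null livers (SE 0.10, interval -0.20 to 0.22). The highest value on any array was 13.69 to 13.97, close above Cyp2e1, and whether the array still responds in proportion at such levels was not tested.

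Cyp1a2, the second pericentral P450 that oxidises APAP and the AHR-induced member with a signal above the filter, varied more. It read 11.61, 11.58 and 11.29 in null APAP livers and 11.09, 11.44 and 11.44 in WT APAP livers. In saline the values were 11.26, 11.55 and 11.35 in null livers and 11.07, 11.46 and 11.55 in WT livers. The lowest liver of each WT group, WT APAP 12 and WT saline 8, lay below all 6 null livers, and the other WT livers lay among them. Cyp1a2 averaged 11.44 ± 0.16 in null livers and 11.34 ± 0.21 in WT livers (SD, n = 6 each). The difference of 0.10 had an SE of 0.11 and an interval of -0.15 to 0.35 (limma adjusted p = 0.784). It was 0.23 within the first array set and -0.17 within the second, so its sign depended on the set. The largest single contrast of Cyp1a2 was null against WT after APAP, at 0.17 (SE 0.16, interval -0.19 to 0.52).

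Cyp1a1, the P450 most strongly induced through AHR in many tissues, gave no signal that could be told from the low end of the array. Its probe set read 2.21, 2.14 and 2.03 in null APAP livers and 1.74, 2.18 and 2.20 in WT APAP livers. In saline it read 2.08, 2.06 and 1.91 in null livers and 1.98, 2.18 and 2.13 in WT livers. On 0 of 12 arrays did Cyp1a1 exceed the 40th percentile, which was 2.42 to 2.48, so it was not tested. Without the filter its differences were -0.08 for null against WT in saline and 0.09 after APAP, and 0.11 for APAP against saline in null livers and -0.06 in WT livers. These are values near background and carry no direction.

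Cyp3a11, the main mouse liver member of the family that metabolises many drugs and the usual reporter of PXR activity, was nearly as steady as Cyp2e1. It read 12.13, 12.20 and 12.20 in null APAP livers and 12.33, 12.22 and 12.25 in WT APAP livers. In saline it read 12.14, 12.10 and 12.20 in null livers and 12.20, 12.15 and 12.19 in WT livers. The 3 WT APAP livers, at 12.22 to 12.33, lay above every other liver, the next reading 12.20. How many of all tested probe sets set 1 group apart from all other livers was not computed. In the comparisons made, Cyp3a11 was the 1 tested member with groups that did not overlap, in the 2 comparisons that share those 3 arrays. Null against WT after APAP was -0.09 (SE 0.09, interval -0.29 to 0.11, limma adjusted p = 0.967), in a comparison where 6.37% of all tested probe sets were lower in null livers without overlap. APAP against saline in WT livers was 0.09 (SE 0.09, interval -0.11 to 0.29, limma adjusted p = 1.00), where 2.75% were higher without overlap. In the other comparisons 0 of the 5 tested members had groups without overlap, against 14.6% of all tested probe sets for null against WT in saline, 3.87% over both treatments, 4.94% for APAP against saline in null livers and 0.0489% over both genotypes. Neither Cyp3a11 difference passed the test, and the interaction was -0.06 (SE 0.13, interval -0.34 to 0.22). Over both treatments Cyp3a11 averaged 12.16 ± 0.04 in null livers and 12.22 ± 0.06 in WT livers (SD, n = 6 each), a difference of -0.06 (interval -0.20 to 0.08).

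Cyp3a13, a member of the same family that in the mouse is made in gut as well as liver, had the widest spread of the 5 tested and the largest genotype differences in saline and over both treatments. It read 9.83, 9.90 and 9.96 in null APAP livers and 10.07, 9.48 and 9.64 in WT APAP livers. In saline it read 10.15, 9.88 and 9.60 in null livers, against 9.25, 9.60 and 9.66 in WT livers. The groups overlapped in both treatments, with the highest value in null saline 4 and the lowest in WT saline 8. Over both treatments Cyp3a13 averaged 9.89 ± 0.18 in null livers (9.60 to 10.15) and 9.61 ± 0.27 in WT livers (9.25 to 10.07; SD, n = 6 each). The difference was 0.27 (SE 0.13, interval -0.01 to 0.56), a 1.21-fold higher mean that did not pass (limma adjusted p = 0.333). In saline it was 0.38 (SE 0.18, interval -0.02 to 0.78, limma adjusted p = 0.484). That saline value was 0.59 within the first array set and -0.05 in the second, and 0.59 when the second set was left out. After APAP the difference was 0.17 (SE 0.18, interval -0.23 to 0.57), and the interaction was -0.21 (SE 0.26, interval -0.77 to 0.36). The genotype difference was therefore not shown to depend on APAP.

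Cyp3a25, the neighbour of Cyp3a11, read 11.84, 12.01 and 11.84 in null APAP livers and 11.74, 11.84 and 11.93 in WT APAP livers. In saline it read 11.72, 11.83 and 11.95 in null livers and 11.58, 11.93 and 11.97 in WT livers. The lowest liver was again WT saline 8, and the 4 groups overlapped. Cyp3a25 averaged 11.86 ± 0.10 in null livers and 11.83 ± 0.15 in WT livers (SD, n = 6 each), a difference of 0.03 (SE 0.09, interval -0.17 to 0.23, limma adjusted p = 0.931). Transcripts of closely related Cyp3a genes may bind each other's probes. The probe set of Cyp3a16 was under the filter, with group means of 1.69 to 1.79, and those of the Cyp3a41 genes (2.90 to 3.08) and Cyp3a44 (3.23 to 3.36) lay near the array medians of 2.91 to 2.99.

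**Figure D2:**
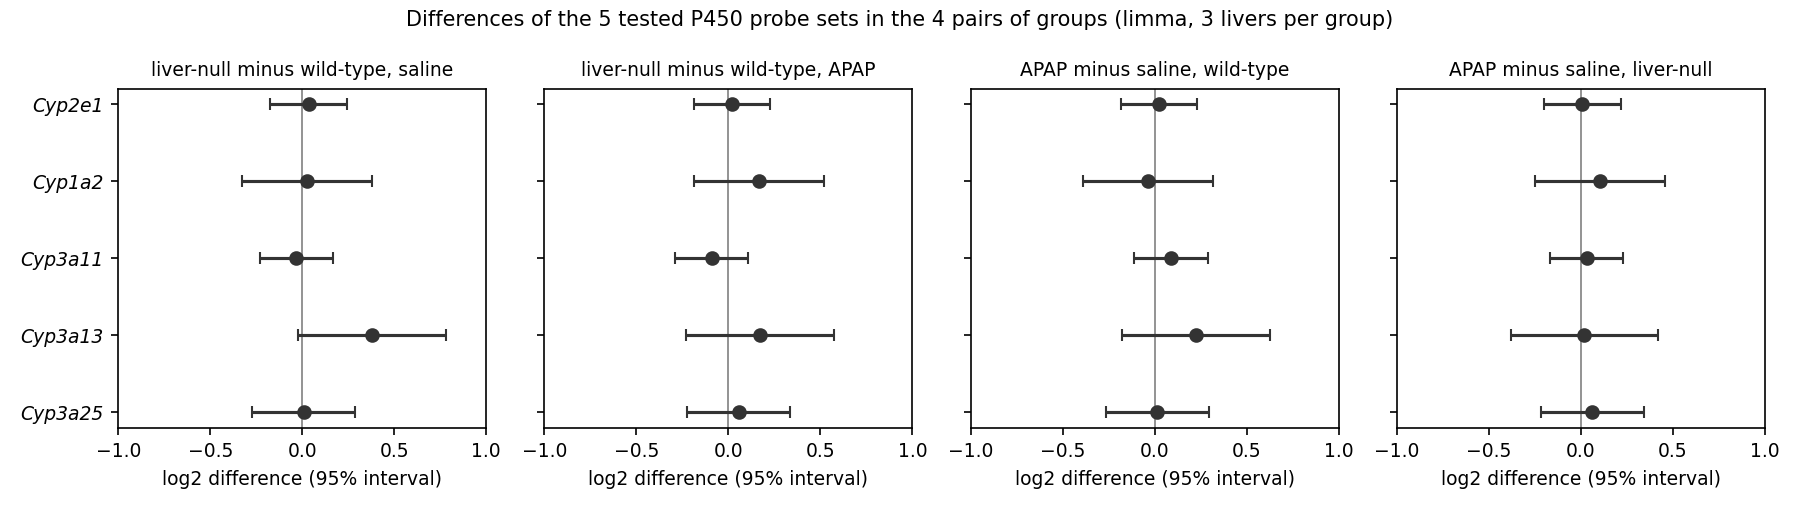
Log2 differences of the 5 tested P450 probe sets with 95% intervals (limma), for null against WT and for APAP against saline. Every interval includes 0, and the one reaching farthest above it is that of Cyp3a13 for null against WT in saline, at 0.78.

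Across the 5 tested probe sets, the intervals for null against WT over both treatments ran from 0.869-fold to 1.47-fold. Without Cyp3a13 the upper end was 1.27-fold. In saline they ran from 0.797-fold to 1.72-fold and after APAP from 0.818-fold to 1.49-fold. APAP against saline gave intervals of 0.763-fold to 1.54-fold in WT livers and 0.768-fold to 1.37-fold in null livers. A 2-fold change of any tested member in RNA signal lay outside all of these intervals. The median size of the members' differences was 0.06 for null against WT over both treatments, beside 0.11 for all tested probe sets. It was 0.03 in saline beside 0.14, and 0.09 after APAP beside 0.12. Strong probe sets vary less, and the probe sets compared here were not matched to the members' level.

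The members differed from each other mainly in how much they varied from liver to liver. The SD over the 12 livers was 0.05 for Cyp2e1, 0.06 for Cyp3a11, 0.12 for Cyp3a25, 0.18 for Cyp1a2 and 0.26 for Cyp3a13, and the median of all tested probe sets was 0.22. Of all tested probe sets, 0.300% had a smaller SD than Cyp2e1 and 0.426% a smaller one than Cyp3a11. Strong probe sets vary less, so the 459 tested probe sets with a mean above 11 are the closer comparison. Their median SD was 0.11, and 4.36% of them had a smaller SD than Cyp2e1, 6.10% than Cyp3a11, 54.9% than Cyp3a25 and 77.6% than Cyp1a2. Cyp2e1 and Cyp3a11 thus had small SDs within this set, while Cyp1a2 did not. Cyp2e1 and Cyp3a11 have means of 13.14 and 12.19, well above 11, and probe sets matched to those levels were not compared.

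**Figure D3:**
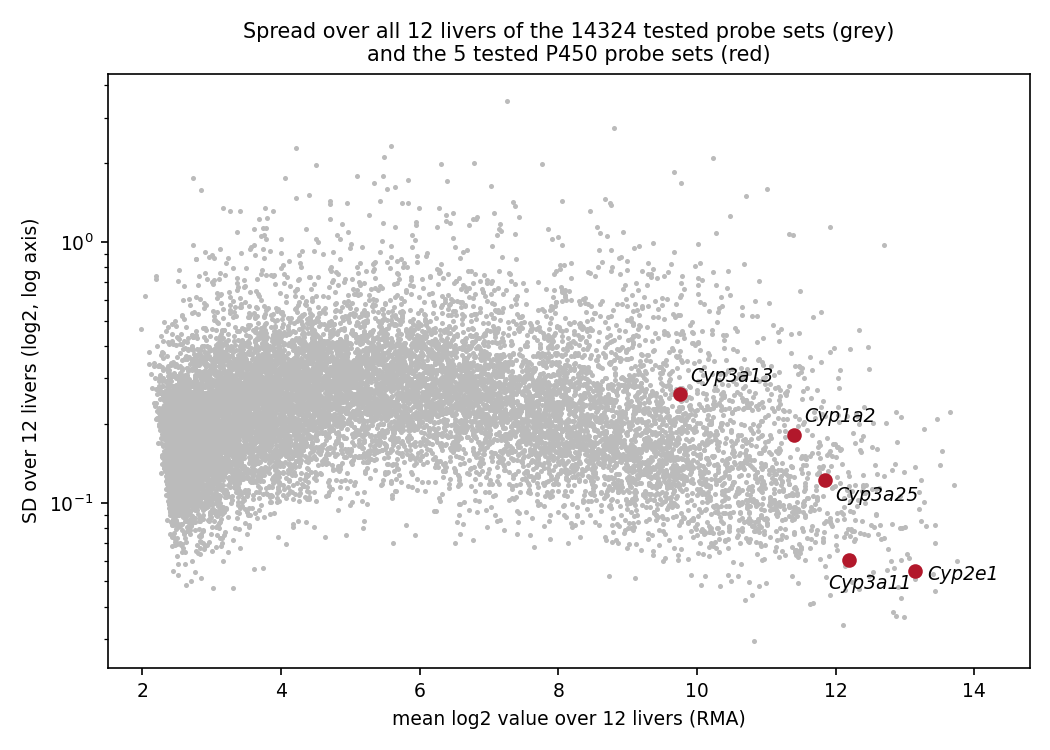
SD over the 12 livers (log2, log axis) against the mean log2 value for all 14324 tested probe sets in grey and the 5 tested P450 probe sets in red. Cyp2e1 and Cyp3a11 lie at the lower edge, at 0.05 and 0.06, and Cyp3a13 lies highest of the 5 at 0.26.

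From liver to liver, Cyp1a2 and Cyp3a25 moved together, with a Pearson r of 0.75 over 12 arrays and 0.81 after each array set was centred on its own mean. Cyp2e1 and Cyp3a25 had an r of 0.75, and 0.68 after centring, while Cyp1a2 and Cyp3a11 ran opposite at -0.52, and -0.55 after centring. These are descriptions across arrays that share depth of signal and array set, and Cyp2e1 and Cyp3a11 span only 0.19 and 0.23. WT saline 8 was the lowest of the 12 livers for Cyp2e1, Cyp1a2 and Cyp3a25, and r without it was not computed. The genes most like each member were searched among 8464 other tested genes by r over the 12 centred arrays. Picking the highest of so many genes over 12 arrays gives a high r by selection alone. The names are therefore a description, and shared regulation was not tested. They were Mtmr14 (0.89), Gigyf1 (0.82) and Syk (0.82) for Cyp2e1. For Cyp1a2 they were Chchd3 (0.90), Atl3 (0.90) and Acot12 (0.88). The closest to Cyp3a11 were Clp1 (0.93), Ythdf1 (0.92) and Gt(ROSA)26Sor (0.91). Ttc33 (0.94), Rhbdd1 (0.92) and Tab2 (0.91) led for Cyp3a13, and Colec12 (0.92), Capn10 (0.90) and Lims2 (0.89) for Cyp3a25. Centring made some of these: without it Mtmr14 had an r of 0.38 with Cyp2e1, Gigyf1 0.21, and Capn10 0.41 with Cyp3a25. With Cyp3a11, Clp1 had 0.63 and Gt(ROSA)26Sor 0.60 without centring.

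Lists of the regulators, partners and fellow targets of these P450s were read against a background in which 3.65% of all tested probe sets, or 4.46% with 1 probe set a gene, were called for the genotype over both treatments. Counts of 1 gene in a list of about 10 lie close to that background, and are given for the named genes rather than for the list. In the comparison over both treatments the list values come from 6 null and 6 WT livers, with 1 probe set a gene, and the median difference of all tested probe sets was -0.01. Of the 14 tested P450 regulators, which include Ahr, the PXR gene Nr1i2 and the CAR gene Nr1i3, 0 were called and the median was 0.01. Nr1i3 read 9.05 ± 0.06 in null livers and 8.21 ± 0.59 in WT livers (difference 0.84, SE 0.23, limma adjusted p = 0.0761). The nuclear receptor Nr0b2 read 6.55 ± 1.29 in null livers and 7.68 ± 0.25 in WT livers (difference -1.13, SE 0.50, adjusted p = 0.305, limma).

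Of 7 other AHR targets listed, Cyp1b1, Ahrr and Aldh3a1 were under the filter. Among the 4 tested, Nqo1 and Ugdh rose and Nfe2l2 fell in null livers (median 0.55). Tiparp, with group means of 3.37 to 3.72, was not called, and Cyp1a2 did not pass. Whether AHR activity differed was not tested, since the called genes include Nqo1 and the NRF2 gene itself. Nqo1, a quinone reductase that AHR and NRF2 both induce, read 6.73 ± 0.19 in null livers against 3.47 ± 0.82 in WT livers (SD, n = 6 each), a log2 rise of 3.26 (SE 0.28, limma adjusted p = 0.000206). The WT level lies near the array medians of 2.91 to 2.99, where the signal over background is not known, so no fold is given for Nqo1. Ugdh, which makes the sugar donor for glucuronidation, rose 2.15-fold (log2 1.10, SE 0.10, adjusted p = 0.000220, limma). Nfe2l2, the NRF2 gene itself, fell by 0.76 on the log2 scale (SE 0.11, adjusted p = 0.00426, limma). Among 10 tested PXR and CAR targets other than Cyp3a11, 1 rose and 0 fell (median 0.20). It was Abcc3, a transporter that exports glucuronides, which rose 2.36-fold (log2 1.24, SE 0.21, adjusted p = 0.00778, limma).

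Of the 10 tested microsomal partners of P450s, 2 rose and 0 fell (median 0.04). Ephx1, the microsomal epoxide hydrolase, rose 1.78-fold (log2 0.83, SE 0.10, limma adjusted p = 0.00135). Pgrmc1, a heme-binding membrane protein, rose 1.22-fold (log2 0.29, SE 0.06, adjusted p = 0.0313, limma), and its call was lost without any 1 of the 12 arrays. Of 9 tested genes of heme synthesis, which supplies the P450 cofactor, 0 rose and 1 fell (median 0.01). That was Abcb10, a mitochondrial transporter, which fell by 0.97 (SE 0.15, adjusted p = 0.00455, limma).

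On the side that removes APAP and its quinone imine, 3 of 11 tested conjugation and export genes rose and 0 fell (median 0.30). Besides Abcc3 these were Gclc, the catalytic subunit that starts glutathione synthesis, and Gstm1, a glutathione S-transferase. Gclc rose 1.94-fold (log2 0.96, SE 0.20, limma adjusted p = 0.0227), a call lost without null APAP 2, null saline 5 or WT saline 8, with the largest adjusted p at 0.0666. Gstm1 rose 1.57-fold (log2 0.65, SE 0.12, adjusted p = 0.0114, limma), and related transferases may bind its probes. The plot of genotype differences sets these beside the P450s.

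**Figure D4:**
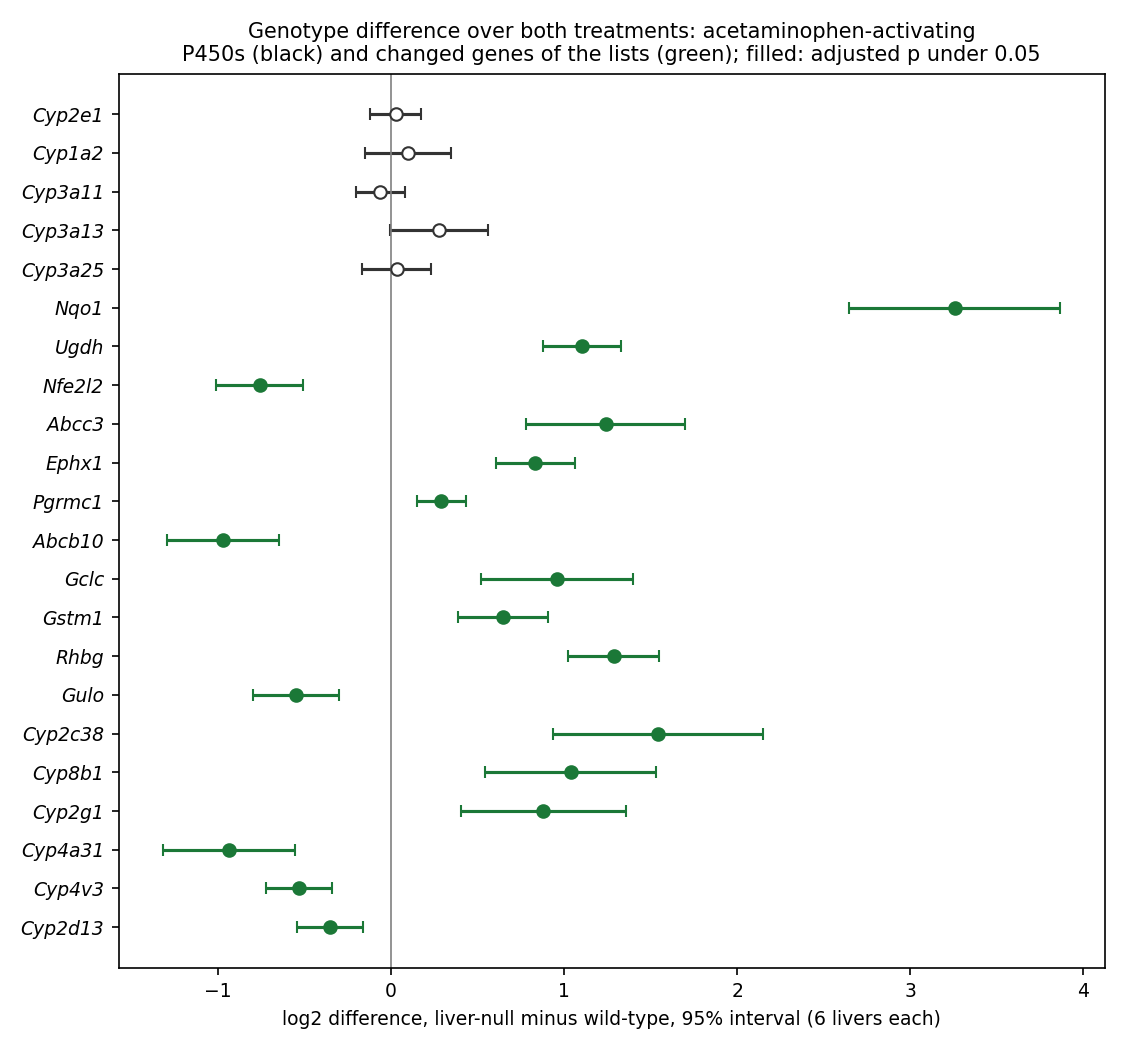
Genotype difference (log2, null minus WT, both treatments, 6 livers each) with 95% intervals for the 5 tested P450s in black and for the called genes named from the lists in green, filled where the adjusted p was under 0.05. The P450 intervals all include 0, and Nqo1 lies farthest from it at 3.26.

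Cyp2e1 and Cyp1a2 are pericentral, and other pericentral genes gave 1 rise and 1 fall among 12 tested (median difference within 0.01 of 0). Rhbg, an ammonium transporter, rose 2.44-fold (log2 1.29, SE 0.12, limma adjusted p = 0.000220), from 4.26 in WT to 5.55 in null livers. Gulo, an enzyme of vitamin C synthesis, fell by 0.55 (SE 0.11, adjusted p = 0.0202, limma), a call lost without null saline 5, WT APAP 13 or WT saline 9. Of 8 tested periportal genes, 0 were called (median -0.08). The largest differences there were those of Cdh1 (-0.99, SE 0.26, adjusted p = 0.0616) and Hal (-0.36, SE 0.13, adjusted p = 0.185, both limma).

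Of 38 other P450 genes tested, 3 rose and 3 fell with the genotype (median -0.04). Cyp2c38 rose 2.91-fold (log2 1.54, SE 0.28, limma adjusted p = 0.0104), from 4.23 in WT to 5.77 in null livers. Cyp8b1, the bile acid sterol hydroxylase, rose 2.05-fold (log2 1.04, adjusted p = 0.0274), and Cyp2g1 rose by 0.88 on the log2 scale (adjusted p = 0.0491). Cyp4a31 fell by 0.93 (adjusted p = 0.0124), Cyp4v3 fell by 0.53 (adjusted p = 0.00654) and Cyp2d13 fell by 0.35 (adjusted p = 0.0477, all limma). Cyp2g1 read 4.11 in null and 3.23 in WT livers, and Cyp4a31 read 3.24 in null and 4.18 in WT livers. The lower level of each lies near the array medians of 2.91 to 2.99, where the signal over background is not known. The call of Cyp2d13 was lost without any 1 array, that of Cyp2g1 without 10 of the 12 and that of Cyp8b1 without 8 of the 12. The calls of Cyp2c38 and Cyp4v3 held when any 1 array was left out, and Cyp4a31 lost its call without the second array set (adjusted p = 0.0925).

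Within a single treatment fewer list genes passed. In saline, Nqo1 (log2 2.83), Ugdh (1.05), Ephx1 (0.76) and Rhbg (1.45) rose and Abcb10 fell by 1.25 in null livers. Nqo1 and Ugdh lost these calls without null saline 5, Ephx1 without 10 of the 12 arrays in turn, and Abcb10 without null saline 4, null saline 5, WT saline 8 or WT saline 9. After APAP, Nqo1 (3.69), Ugdh (1.15), Ephx1 (0.91) and Rhbg (1.12) rose, and Nfe2l2 and Cyp4a31 fell by 0.83 and 1.28. Nqo1 and Ugdh kept these calls without any 1 array. Those of Nfe2l2 and Cyp4a31 were lost without 10 and 8 of the 12 arrays in turn, those of Ephx1 without null APAP 2, null APAP 3, WT APAP 12 or WT APAP 13, and those of Rhbg without null APAP 2, null APAP 3 or WT APAP 13. Rhbg also lost its call in both treatments without the second array set. For APAP against saline 0 genes of any list were called in either genotype (limma), beside 0.0% of all tested probe sets. That 0 is therefore not particular to the P450s or the lists. Among the regulators, the largest differences in WT livers were those of Ahr (0.64, interval 0.12 to 1.15) and Foxa2 (-0.33, interval -1.12 to 0.46). In null livers they were those of Nr1i2 (0.44, interval -0.22 to 1.10) and Ppara (0.30, interval -0.36 to 0.97). For the 5 tested P450s the intervals given above limit the size of change at 8 hours. For most list genes no interval is given.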

How the data were processed

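The deposited log2 expression values are the authors' RMA output (robust multi-array average), per the submitters' processing notes. The RMA version is not given in the sources used here. RNA was isolated with a RiboPure kit and labelled in 1 amplification cycle as biotin cRNA, per the labels' protocols. Arrays have no read depth, and their number limits the precision. The values were used without further normalization.

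Probe sets were named from GEO's platform annotation, which may be old: 20380 have 1 symbol, 691 several, 1555 none and 64 are controls. limma 3.58.1 in R 4.3.3 was fitted to all 12 arrays with 4 group means (8 residual and 3.42 prior degrees of freedom, eBayes defaults), two-sided, and tested on simulated data first. Because limma borrows spread between probe sets, its SE for Cyp2e1 and Cyp3a11 rests on a larger spread than their own residual SD of 0.0610 and 0.0436. There were 7 comparisons. A list gene was represented by its 1-symbol probe set with the highest mean. Every member was named. Over both treatments, up to 3 called genes in each direction were named per list, or the 2 with the largest difference where none passed. In the other comparisons only called list genes were named, except the regulators given for APAP against saline. Larger differences without a call may therefore be missing there. The members, lists and tests were chosen with earlier results of these data known. The array sets were cut at the largest gap in upper quartile. Alternatives were the filter, array set as covariate, array weights, quantile normalization, 1 probe set a gene, a trended robust prior, the arrays of 1 comparison alone, and leaving out each array. Promoters came from RefSeq, build GRCm38.p6, and motifs were searched on both strands.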

Additional observations from a re-analysis of the deposited data

How the results depend on the processing

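The 5 tested P450 probe sets gave 0 calls under each of the 21 other settings, 20 of them run in all 7 comparisons and the fit to 6 arrays alone in 4. Of 720 refitted member differences, 0 passed the adjusted threshold. The smallest adjusted p was 0.0982, for Cyp3a13 in null against WT over both treatments with array weights (difference 0.27). An unadjusted p under 0.05 was reached 12 times, each time by Cyp3a13, and lowest without WT APAP 12 (adjusted p = 0.166, difference 0.36, limma). Without the second array set, an alternative chosen after seeing the data, the saline difference of Cyp3a13 was 0.59. No paired analysis was possible because the replicate numbers in the labels are not shared between groups.

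The calls over all probe sets moved far more. In saline the 89 calls became 2040 with array weights, 385 with array set as a covariate, 168 with the trended robust prior, 164 after quantile normalization, 146 without the second array set, 54 with 1 probe set a gene and 31 from the 6 arrays alone, and ranged from 13 to 124 when 1 array was left out. After APAP the 109 calls became 286 with array weights, 282 with the covariate, 65 with 1 probe set a gene and 66 from the 6 arrays alone, and ranged from 32 to 103 when 1 array was left out. Over both treatments the 523 calls became 1991, 1262 and 816 with array weights, the covariate and quantile normalization, and ranged from 311 to 611. Array weights gave WT saline 9 a weight of 5.48 and WT saline 10 one of 0.382, and turned the saline split to 765 higher and 1275 lower, beside 51 higher and 38 lower. The cause was not tested. With 3 livers a group, small shifts in Cyp1a2 and Cyp3a13 were not detectable, and Cyp1a1 was below the filter.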
